A study of Homo sapiens with 16 samples.

Results

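The genes described here are 10 regulators of the neural crest and melanocyte lineage: the transcription factors SOX10, PAX3, TFAP2A, LEF1, ZEB2 and SNAI2 and the receptors KIT, EDNRB, MC1R and ERBB3. They are 10 of the 20033 protein-coding genes of the RefSeq table used here. For each, the peaks overlapping its GRCh38 gene body with 20 kb on either side (its window) were collected from 14 peak lists. The study profiled WM164, a human melanoma cell line, by CUT&RUN, in which an antibody-guided nuclease releases the DNA fragments around a bound protein. One line overexpressed GFP, a fluorescent protein that served as the control, and the other overexpressed MAFG; they are called GFP cells and MAFG cells below. In each line 3 libraries were made with an anti-MAFG antibody, 3 with an anti-MITF antibody and 1 with an antibody to H3K4me3, a histone mark found at active gene starts. Both lines were grown in DMEM, per the labels. Whether a line is a clone or a pool is not given in the sources used here. The labels do not say that replicates are separate cultures, so p-values measure only the spread between these libraries, which may be technical.

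Melanocytes arise from the neural crest, an embryonic population that delaminates from the neural tube and migrates. TFAP2A, PAX3, SOX10, SNAI2 and ZEB2 act in specifying, releasing or maintaining these cells, and LEF1 carries Wnt signals to DNA. PAX3 and SOX10 activate MITF, the factor that directs melanocyte differentiation. KIT, EDNRB, ERBB3 and MC1R receive stem cell factor, endothelins, neuregulins and melanocortins from outside the cell. MAFG belongs to the small MAF proteins, which lack an activation domain and contact DNA paired with CNC factors such as NRF2 or BACH1, or with each other.

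The peak lists of the 2 lines differed in length over the whole genome, and every count below has to be read beside that. GFP cells gave 14879 to 26221 anti-MAFG peaks and 19828 to 20117 anti-MITF peaks per library, and MAFG cells gave 1836 to 2818 and 2116 to 2495. The H3K4me3 lists held 13579 and 11580 peaks. Fragment depth, estimated from the lists themselves, was 1.2 to 2.42 fragments per kb in the factor libraries of GFP cells and 1.23 to 1.73 in those of MAFG cells, so the ranges overlapped. The peak caller's scaling of the fragments was 0.969 to 1 in the first and 0.452 to 0.637 in the second, and the 5th percentile of fragments per peak was 6 to 9 and 10 to 15. The part of this scaling in the counts was not tested. H3K4me3 lay at all 6 melanocyte markers examined (MITF, PMEL, MLANA, TYR, DCT, SOX10) in both lines. Of 12 markers of keratinocytes, fibroblasts, leukocytes and endothelium it lay at 1 in GFP cells (PDGFRA) and at 0 in MAFG cells. Only 4 of the 12 had a listed start (0 of the 3 endothelial ones), and a marker without one is not shown to be unmarked.

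In GFP cells most of these regulators carried peaks of both antibodies, and in MAFG cells EDNRB alone did in at least 2 libraries of each. A region called in at least 2 of 3 libraries (a consensus region) with anti-MAFG was present at 8 of 10 genes in GFP cells, all but KIT and MC1R, where 43.4% of all protein-coding genes had one. In MAFG cells 2 of 10 had one, ZEB2 and EDNRB, against 6.23% of all genes. With anti-MITF the counts were 9 of 10 in GFP cells, all but KIT, against 53.5%, and 4 of 10 in MAFG cells, against 10.3%. Those 4 were SOX10, SNAI2, EDNRB and MC1R. All genes with a region in MAFG cells also had one in GFP cells, so 2 of 10 had one in both lines with anti-MAFG, against 5.69% of all genes, and 4 of 10 with anti-MITF, against 10.2%. The windows of the 10 genes had a median length of 91.7 kb, against 64.1 kb for all genes, and a longer window has more room for a peak. With 5 kb on either side the anti-MAFG counts were 7 in GFP cells and 2 in MAFG cells. ERBB3 was then left out, as its only anti-MAFG consensus region lay 724 bases from the RPL41 start. Within gene bodies alone the anti-MAFG counts were 5 and 1, and the count in MAFG cells was also 1 without library 1 or library 3 of that group. When every list was shortened to its 1836 best peaks, the anti-MAFG count in GFP cells was 4 (LEF1, ZEB2, SNAI2, EDNRB; 5.74% of all genes) and that in MAFG cells 1 (EDNRB; 5.58%). The anti-MITF counts were then 3 in GFP cells (SOX10, SNAI2, MC1R; 8.35%) and 4 in MAFG cells (SOX10, SNAI2, EDNRB, MC1R; 8.29%).

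Per gene, the number of anti-MAFG peaks was higher in every GFP-cell library than in every MAFG-cell library for 8 of the 9 genes tested, against 45.4% of the 12012 genes tested. The exception was MC1R, and KIT had no anti-MAFG peak. With anti-MITF the same held for 8 of 10, all but PAX3 and KIT, against 56.9% of 13249 genes. No gene of the set was higher in MAFG cells without overlap, against 0.225% and 0.00755% of genes. The median difference in peak number, GFP minus MAFG cells, was 4 for these genes and 1 for all genes tested with anti-MAFG, and 3.17 and 1.33 with anti-MITF. In the two-sided exact permutation test on 3 against 3 libraries each of these non-overlapping genes had p = 0.1, the smallest value the design allows. After Benjamini-Hochberg adjustment over all genes tested the exact test gave 0.219 with anti-MAFG and 0.176 with anti-MITF, so none passed 0.05. With lists of equal length SNAI2 alone was higher in GFP cells without overlap, with each antibody, 1 of 5 genes tested each time. The background was then 8.30% of genes with anti-MAFG and 6.46% with anti-MITF, and no gene of the set was higher in MAFG cells (10.9% and 5.81% of all).

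**Figure D1:**
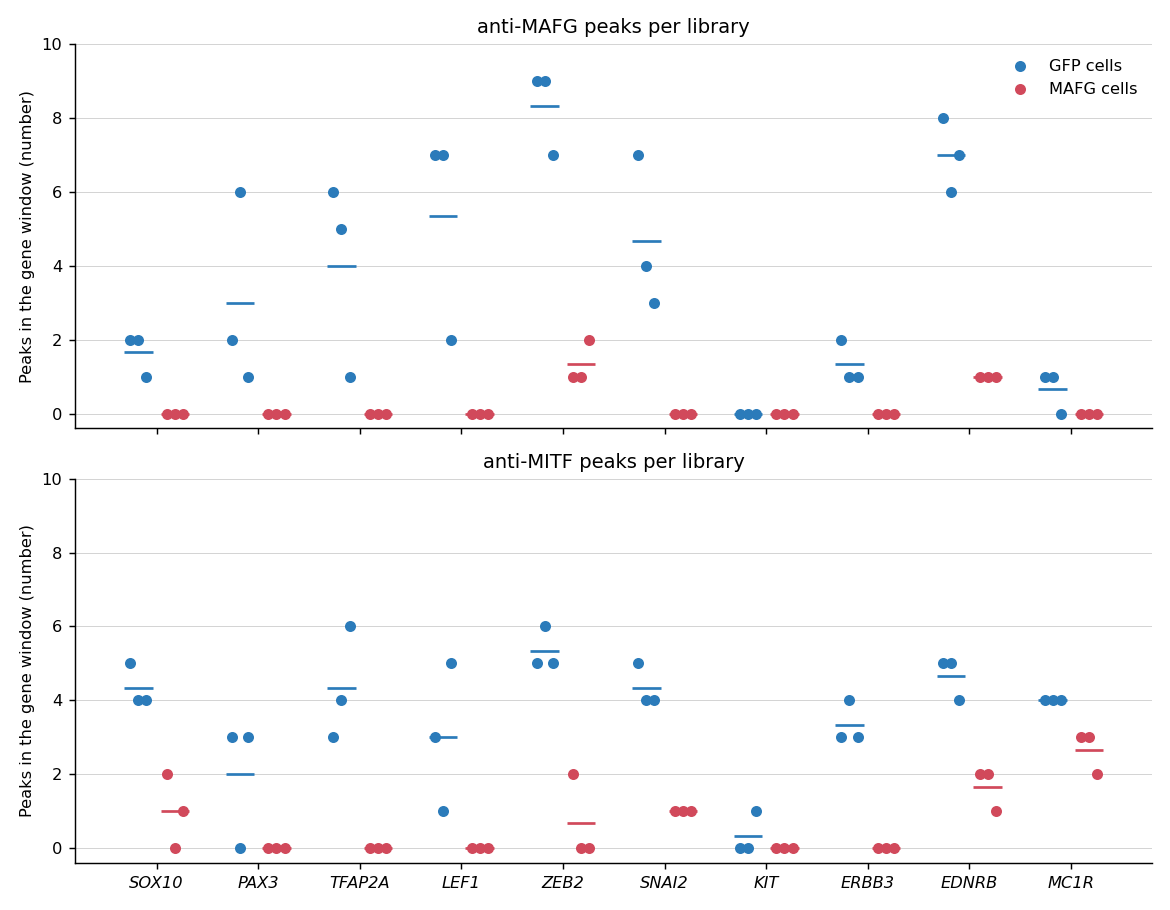
Number of anti-MAFG (upper) and anti-MITF (lower) peaks in the window of each gene; a point is 1 library and a bar the mean of 3. The points of GFP cells lie above those of MAFG cells for 8 genes in each panel, and MAFG cells keep anti-MITF peaks in all 3 libraries at SNAI2, EDNRB and MC1R.

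SOX10, the SOXE factor that sustains crest-derived cells and activates MITF, lies at chr22:37972312-37984555 on the minus strand, in a window that also reaches C22orf23 and POLR2F. Its window held 2, 2 and 1 anti-MAFG peaks in the libraries of GFP cells and 0 in each from MAFG cells. Anti-MITF gave 5, 4 and 4 peaks in GFP cells, against 2, 0 and 1 in MAFG cells, so the groups did not overlap with either antibody. At the gene start anti-MITF peaks merged into a region at chr22:37984007-37989076, where the authors' fold enrichment (each peak's own value, read only within its list) was 14.1, 7.9 and 12.2 in GFP cells. In MAFG cells that region held narrower peaks of 7.16 and 6.9 in libraries 1 and 3. A second anti-MITF region, 16.1 kb into the direction of transcription and past the gene, at chr22:37967704-37970104, had folds of 12.5, 10.1 and 8.6 in GFP cells and no peak in MAFG cells. The only anti-MAFG consensus region, chr22:37968301-37968957, lay inside it with folds of 6.3, 5.52 and 7.54. The POLR2F start, 14789 bases from that anti-MITF region, is nearer to it than the SOX10 start. Anti-MITF peaks thus lay at the SOX10 start in both lines, and the region of both antibodies downstream was called in GFP cells alone.

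SNAI2, the SLUG repressor of epithelial genes, lies at chr8:48917598-48921429 on the minus strand and held the strongest anti-MITF site of the 10 genes in GFP cells. That region, 12.6 kb upstream of the start at chr8:48933075-48934885, had folds of 21.9, 17.2 and 21.1 and ranks 82, 224 and 78 in lists of 19828 to 20117 peaks. In MAFG cells it was called in all 3 libraries with folds of 6.02, 7.58 and 9.49. The fragments at its summit, recovered from fold and p, were 32, 28 and 32 in GFP cells, against 33, 36 and 26 in MAFG cells. The fragment ranges of the lines overlapped, and no H3K4me3 peak lay there in either line. Anti-MAFG peaks over the same place, chr8:48933573-48934560, had folds of 15, 13.8 and 11.5 in GFP cells and were not called in MAFG cells. At the SNAI2 start anti-MAFG folds were 17.4, 18.8 and 7.82 (chr8:48919642-48923272) and anti-MITF folds 12.3, 11.1 and 12.7 (chr8:48919633-48922981), all in GFP cells. The whole window held 7, 4 and 3 anti-MAFG peaks in GFP cells against 0, and 5, 4 and 4 anti-MITF peaks against 1, 1 and 1. With anti-MAFG the start region had the higher fold in libraries 1 and 2 and the upstream region in library 3, and with anti-MITF the upstream region had it in all 3 libraries of GFP cells.

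**Figure D2:**
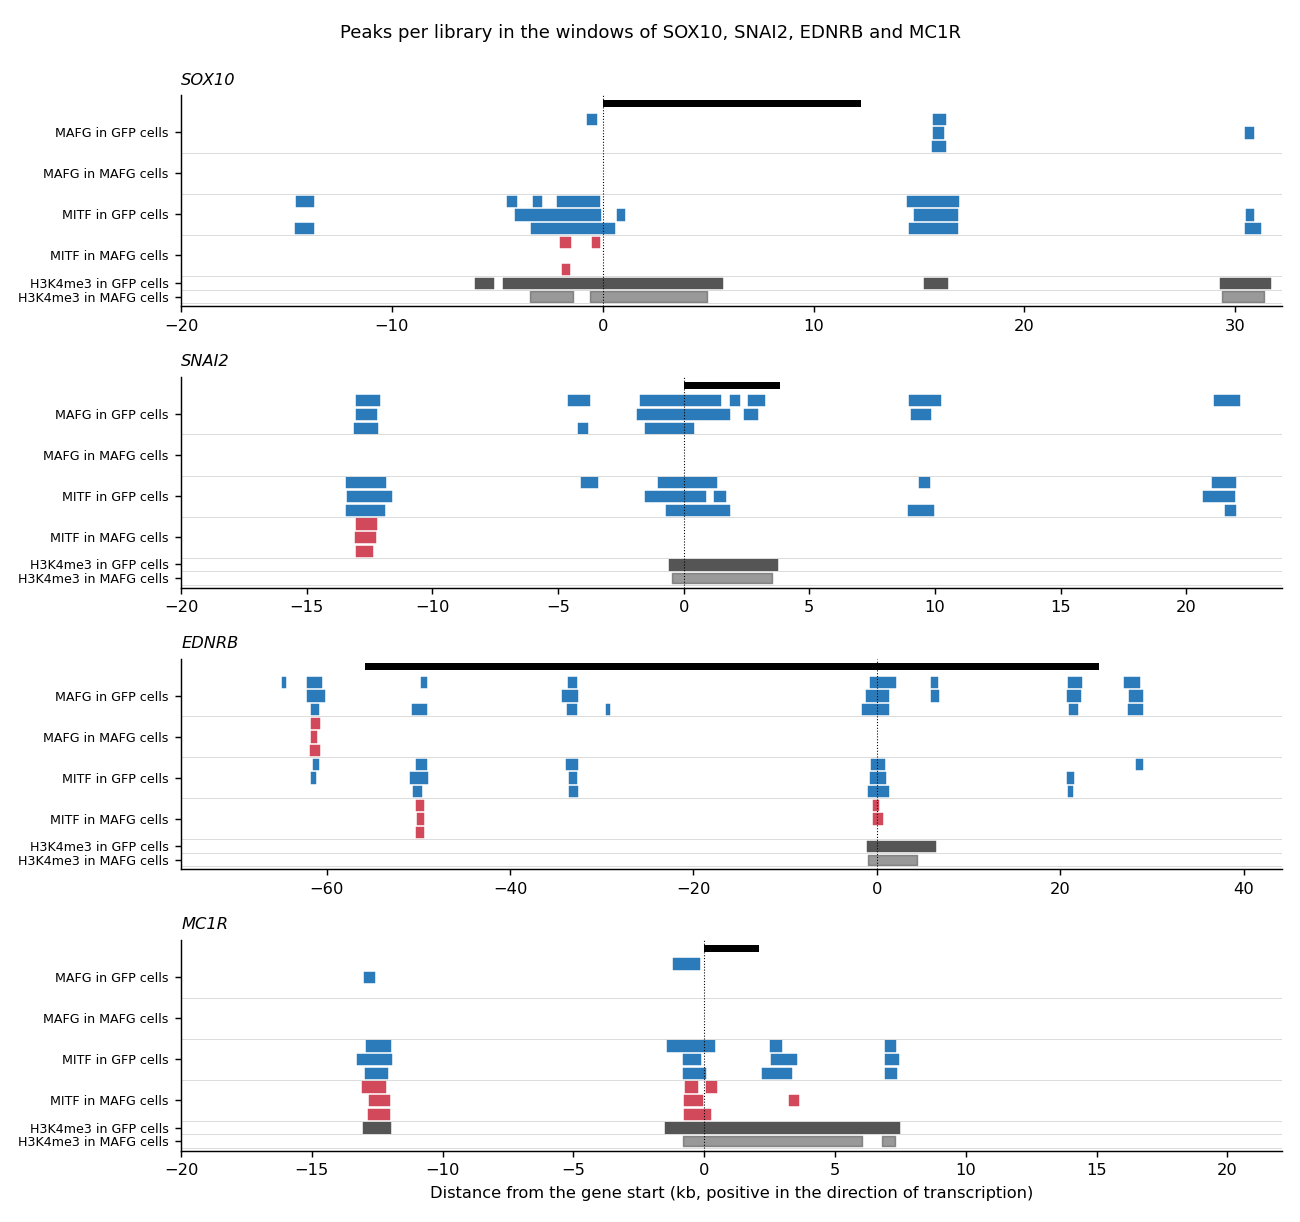
Peaks in the windows of SOX10, SNAI2, EDNRB and MC1R against distance from the gene start in kb; each line of boxes is 1 library (blue GFP cells, red MAFG cells, grey H3K4me3) and the black bar is the gene body. Red anti-MITF boxes stack in all 3 MAFG-cell libraries 12.6 kb upstream of SNAI2, at 1 place in EDNRB and at 2 places of MC1R, and red anti-MAFG boxes stack at 1 place of EDNRB.

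EDNRB, the endothelin receptor B needed for the spread of melanoblasts, lies at chr13:77895487-77975527 on the minus strand. The promoter of the upstream of its 2 listed starts holds 1 CATGTG hexamer, a core of the E-box that MITF binds. It is printed because both antibodies gave peaks over it. The RefSeq sequence (GRCh38.p14, minus strand, chr13:77919633-77919932, 250 bases before to 50 after the start) has the match in capitals, read CACATG on this strand, at position -151:
EDNRB promoter: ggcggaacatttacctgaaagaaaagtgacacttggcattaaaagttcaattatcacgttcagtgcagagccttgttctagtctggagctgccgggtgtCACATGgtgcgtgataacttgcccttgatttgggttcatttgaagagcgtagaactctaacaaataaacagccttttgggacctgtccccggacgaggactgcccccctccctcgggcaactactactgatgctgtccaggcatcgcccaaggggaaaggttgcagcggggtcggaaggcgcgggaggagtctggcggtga
Over the start anti-MITF folds were 11, 8.78 and 12.9 in GFP cells and 4.12 and 5.26 in MAFG-cell libraries 1 and 2 (chr13:77918465-77920667). The anti-MITF summits lay 559, 678 and 127 bases from the hexamer in GFP cells and 44 and 253 bases in MAFG cells. Anti-MAFG folds at the start were 5.95, 6.75 and 6.63 in GFP cells, with summits 771 to 827 bases from it, and no peak was called in MAFG cells. The promoter of the second start, chr13:77918782-77919081, held none of the motifs searched. The anti-MAFG summits of GFP-cell libraries 1, 2 and 3 lay within it, at -172, -228 and -225 bases from that start.

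EDNRB was the only gene of the set with peaks of each antibody in all 6 libraries. The anti-MAFG region lay 61.4 kb upstream of the start, beyond the annotated gene body, at chr13:77980004-77981819. The gene body reaches chr13:77975527, so this region is nearer to its upstream end than to the start. Its folds were 17.3, 6.97 and 9.57 in GFP cells, against 11.8, 7.43 and 7.81 in MAFG cells, and its summit held 37, 12 and 15 fragments against 38, 18 and 21. The anti-MITF region lay 49.9 kb upstream of the start, within the annotated gene body, at chr13:77968751-77970545, with folds of 6.29, 8.56 and 7.78 against 8.08, 5.69 and 5.72. The ranges of fragments overlapped between the lines at both, and neither carried H3K4me3. The strongest of the anti-MAFG regions found in GFP cells alone, chr13:77890804-77892760, had folds of 13.4, 10.5 and 8.5. In all, EDNRB held 8, 6 and 7 anti-MAFG peaks in GFP cells against 1 in each MAFG-cell library, and 5, 5 and 4 anti-MITF peaks against 2, 2 and 1.

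MC1R, the melanocortin receptor that sets the type of pigment made, lies at chr16:89918862-89920972 on the plus strand in a window that also reaches TCF25, LOC124903759 and TUBB3. Its promoter (RefSeq, GRCh38.p14, plus strand, chr16:89918612-89918911) is printed because anti-MITF peaks reached it in both lines; the CATGTG hexamer in capitals starts at position -64:
MC1R promoter: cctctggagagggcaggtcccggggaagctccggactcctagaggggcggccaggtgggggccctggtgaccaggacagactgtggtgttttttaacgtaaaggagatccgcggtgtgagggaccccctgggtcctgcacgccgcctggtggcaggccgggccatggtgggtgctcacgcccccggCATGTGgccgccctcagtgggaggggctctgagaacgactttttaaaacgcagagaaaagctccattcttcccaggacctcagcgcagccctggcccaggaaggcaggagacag
The region at the start, chr16:89917456-89919313, had anti-MITF folds of 11.3, 7.81 and 10.8 in GFP cells, against 5.71, 5.24 and 6.11 in MAFG cells. Peaks covering the hexamer itself were those of GFP-cell libraries 1 and 3, with summits 542 and 517 bases away, and of MAFG-cell library 3, with its summit 277 bases away. A second region, 12.5 kb upstream at chr16:89905580-89906896 and nearer to the start of LOC124903759 (5336 bases), had folds of 16.6, 11.8 and 11.1 in GFP cells, against 4.89, 5.92 and 9.77 in MAFG cells. Mean fragments at its summit were 18 ± 3.61 and 20.3 ± 3.51 (SD, n = 3 each), and at the start region 18 ± 2.65 and 18.7 ± 3.21, so the lines overlapped at both. An H3K4me3 peak was called over the upstream region in GFP cells and not in MAFG cells. It was weak, with a fold of 7.66 at rank 11426 of 13579 and 11 fragments. The fewest fragments called in the H3K4me3 list of MAFG cells were 12, so absence of the mark there is not shown. The MC1R window held 4 anti-MITF peaks in each GFP-cell library and 3, 3 and 2 in MAFG cells, the highest number of the 10 windows there. Part of these lay nearer to the TUBB3 start, in chr16:89921063-89922438 (74 bases from it) and chr16:89925757-89926290 (2720 bases). In MAFG cells the former held 1 of the 3 peaks of library 2, and 2 of the 3 peaks of library 1 were parts of the MC1R start region. Anti-MAFG gave 1, 1 and 0 peaks in GFP cells, against 0 in MAFG cells, which overlapped (two-sided exact permutation p = 0.4, adjusted p = 0.542).

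Peak numbers as a share of the library's list gave another order at these genes. Per 10000 peaks the anti-MITF number in the MC1R window, peaks near TUBB3 included, was 2 ± 0.0163 in GFP cells and 11.4 ± 3.13 in MAFG cells. It was 2.33 ± 0.297 and 7.16 ± 2.82 at EDNRB, and 2.17 ± 0.307 and 4.25 ± 0.413 at SNAI2 (SD, n = 3 each). All 3 were higher in MAFG cells without overlap, as were 8.88% of genes tested with anti-MITF. With anti-MAFG the same was seen at ZEB2 alone among these genes (3.99 ± 0.649 against 5.98 ± 0.964), and at 6.23% of all genes tested. Shares were higher in GFP cells without overlap for 6 of 9 genes with anti-MAFG (SOX10, PAX3, TFAP2A, LEF1, SNAI2, ERBB3), against 37.5% of genes, and for 3 of 10 with anti-MITF (TFAP2A, LEF1, ERBB3), against 42.2%. At MC1R, EDNRB and SNAI2 with anti-MITF, and at ZEB2 with anti-MAFG, the direction therefore differed between peak numbers and shares.

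ZEB2, a zinc-finger repressor that accompanies the differentiated melanocyte state, lies at chr2:144384081-144520119 on the minus strand and had the most anti-MAFG peaks of the set, 9, 9 and 7 in GFP cells, against 1, 1 and 2 in MAFG cells. The consensus region of both lines lay 93.2 kb into the gene at chr2:144426175-144427359, with folds of 6.79, 4.53 and 5.18 in GFP cells and 7.03 and 4.88 in MAFG-cell libraries 1 and 3. Library 2 of MAFG cells had its peak just beside it, at chr2:144427615-144427955, with a fold of 6.14. The strongest regions of GFP cells were elsewhere in the gene, at chr2:144440895-144442792 with 10.7, 14.7 and 9.6 and at chr2:144510448-144512937 with 12, 10.6 and 8.59; MAFG-cell library 3 had a peak of 6.67 in the latter. Anti-MITF gave 5, 6 and 5 peaks in GFP cells, against 2, 0 and 0 in MAFG cells. Its best region in GFP cells was chr2:144507334-144508214, with 8.71, 5.99 and 5.05, and that nearest the start was chr2:144512166-144512794, with 5.05 and 4.29 in libraries 2 and 3. The ZEB2 promoter, shown as the other CATGTG promoter of the set (RefSeq, GRCh38.p14, minus strand, chr2:144520070-144520369), has the minus-oriented match of TCATGTG, read CACATGA on this strand, in capitals:
ZEB2 promoter: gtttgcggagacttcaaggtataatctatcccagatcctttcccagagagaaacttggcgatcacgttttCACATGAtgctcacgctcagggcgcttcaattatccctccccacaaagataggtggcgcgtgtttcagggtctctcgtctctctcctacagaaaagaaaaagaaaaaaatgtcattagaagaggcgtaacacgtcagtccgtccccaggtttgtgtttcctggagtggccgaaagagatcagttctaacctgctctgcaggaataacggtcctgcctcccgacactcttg
An anti-MITF peak covered that match in 1 library, GFP-cell library 3, with a fold of 4.82 and its summit 364 bases away.

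PAX3, the paired-box factor that keeps melanoblasts undifferentiated and activates MITF, lies at chr2:222199887-222298998 on the minus strand. It held 2, 6 and 1 anti-MAFG peaks in GFP cells, against 0 in MAFG cells, a wide spread between replicates. Its region called in all 3, chr2:222291093-222291741, lay 7.68 kb into the gene with folds of 4.85, 5.44 and 5.72. The best-ranked one, chr2:222290113-222290750, was called in libraries 1 and 2, with 5.15 and 8.41. Anti-MITF gave 3, 0 and 3 peaks in GFP cells, against 0 in MAFG cells, which overlapped (two-sided exact permutation p = 0.4, adjusted p = 0.498). At the start 2 of 3 GFP-cell libraries had an anti-MITF peak (chr2:222298667-222299702, 6.64 and 5.74). PAX3 is the 1 gene of the 7 with a RefSeq promoter entry whose promoter held TGACNNNGC, the core that CNC and small MAF dimers bind. Its sequence (GRCh38.p14, minus strand, chr2:222298949-222299248) has the match, at position -52, in capitals:
PAX3 promoter: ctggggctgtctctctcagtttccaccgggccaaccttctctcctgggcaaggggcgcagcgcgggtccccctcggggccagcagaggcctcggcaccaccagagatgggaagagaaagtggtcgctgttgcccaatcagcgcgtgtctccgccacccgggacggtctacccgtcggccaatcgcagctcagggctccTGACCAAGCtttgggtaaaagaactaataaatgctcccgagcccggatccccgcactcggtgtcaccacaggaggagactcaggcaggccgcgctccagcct
The anti-MAFG peak of GFP-cell library 2 covered it with a fold of 4.71 and its summit 201 bases away; the 2 anti-MITF peaks had summits 170 and 234 bases away.

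The searched motifs were common in promoters at large. Of 35116 promoter entries, 300 bases each and searched on both strands, 11.1% held CATGTG, 2.92% TCATGTG, which contains it, and 13.3% TGACNNNGC. The 9 entries of these genes held CATGTG in 3, TCATGTG in 1 and TGACNNNGC in 1. CACGTG (7.26% of all), TCACGTG (3.71%), TGCTGA (17.3%) and TGAGTCA (4.95%) were in none of the 9. LEF1, KIT and both TFAP2A entries held no match. SOX10, SNAI2 and ERBB3 had no entry.

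TFAP2A, the AP-2 alpha factor of early crest induction, lies at chr6:10396677-10419659 on the minus strand, and its leading regions were past the gene. It held 6, 5 and 1 anti-MAFG peaks in GFP cells, against 0 in MAFG cells, and 3, 4 and 6 anti-MITF peaks against 0. The anti-MAFG region with the best mean rank over the libraries that called it, chr6:10383159-10384339, was called in GFP-cell libraries 1 and 2 with folds of 8.99 and 7.23. The anti-MAFG region called in all 3, chr6:10385956-10386975, had folds of 9.29, 9.25 and 4, and it ranked better in libraries 1 and 2. The best anti-MITF region, chr6:10383352-10384331, had 8.64, 7.1 and 6.38, and a second, chr6:10385943-10386820, had 4.69, 5.54 and 7.42. Both antibodies thus met at the same 2 places, 28.6 kb and 26.2 kb from the downstream of the 2 TFAP2A starts. The consensus regions nearest a start lay upstream, at chr6:10429353-10430352 with anti-MAFG (6.31 and 4.12) and at chr6:10434963-10435950 with anti-MITF (6.05 and 3.65).

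LEF1, the Wnt effector, lies at chr4:108047548-108168932 on the minus strand, and its window also reaches HADH and LOC124900752. It held 7, 7 and 2 anti-MAFG peaks in GFP cells and 3, 1 and 5 anti-MITF peaks, and 0 of either in MAFG cells. Its best region for both antibodies lay deep in the gene, 107 kb from the start. There the anti-MAFG folds of GFP cells were 14.1, 7.66 and 11.5 (chr4:108058329-108059867) and anti-MITF folds 8.63, 7.1 and 3.84 (chr4:108058965-108059620). At the start anti-MITF peaks were called in GFP-cell libraries 1 and 3, with 4.22 and 4.72 (chr4:108166242-108167038). The anti-MAFG consensus region nearest the start, chr4:108170955-108171977, had 7.4 and 6.66 in libraries 1 and 2. That region was nearer to the LOC124900752 start (3247 bases) than to the LEF1 start.

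ERBB3, the neuregulin receptor that pairs with ERBB2, lies at chr12:56080108-56103505 on the plus strand in a window shared with PA2G4, RPL41 and ZC3H10. It held 2, 1 and 1 anti-MAFG peaks and 3, 4 and 3 anti-MITF peaks in GFP cells, and 0 of either in MAFG cells. The strongest anti-MAFG region, chr12:56115259-56116503 with 12.3, 9.01 and 8.34, lay 724 bases from the start of RPL41, not that of ERBB3. The strongest anti-MITF region was there too, at chr12:56115629-56116164, 827 bases from the RPL41 start, with 7.2 and 9 in GFP-cell libraries 1 and 3. A further 2 anti-MITF consensus regions lay at the ZC3H10 start, 458 and 26 bases from it. At the ERBB3 start anti-MITF peaks were called in GFP-cell libraries 1 and 2, with 5.68 and 6.11 (chr12:56078799-56080018).

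KIT, the receptor tyrosine kinase for stem cell factor, stood apart from the other 9 genes. The gene lies at chr4:54657957-54740715 on the plus strand, and its window held no anti-MAFG peak in any library and no H3K4me3 peak in either line. Its 1 anti-MITF peak, in GFP-cell library 3 at chr4:54746568-54746933, had a fold of 5.74 and lay past the gene.

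**Figure D3:**
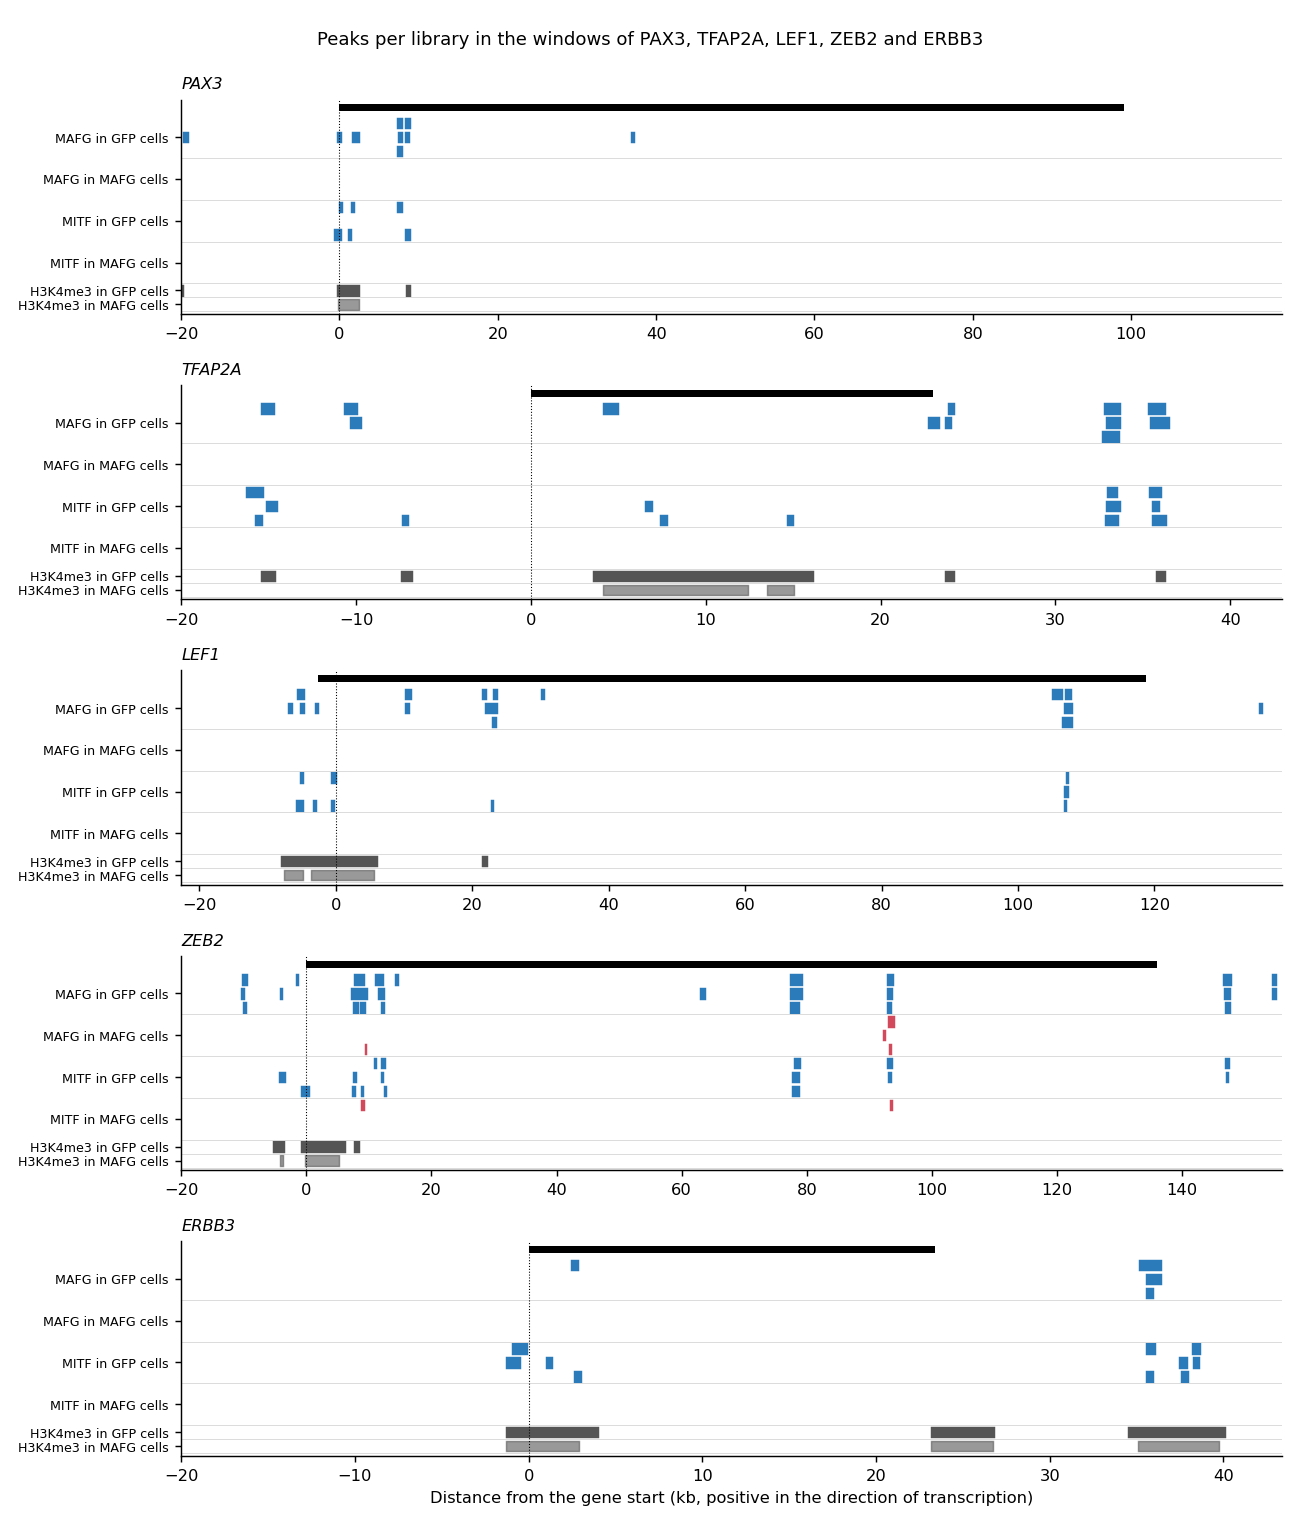
Peaks in the windows of PAX3, TFAP2A, LEF1, ZEB2 and ERBB3 against distance from the gene start in kb; each line of boxes is 1 library (blue GFP cells, red MAFG cells, grey H3K4me3) and the black bar is the gene body. TFAP2A is drawn from its upstream start, whose promoter no H3K4me3 peak covers. Red boxes appear at ZEB2 only, and most blue boxes lie away from the start of the gene shown, as at 107 kb in LEF1.

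Over the 10 windows, most factor regions lay away from the start of the gene whose window held them. Of 31 anti-MAFG consensus regions in GFP cells, 2 were within 1000 bases of a start of that gene, 7 lay upstream, 15 in gene bodies and 9 downstream. Of 33 with anti-MITF, 6 were within 1000 bases of such a start, and 11, 10 and 12 lay upstream, in bodies and downstream. Starts of neighbouring genes are left out of these counts. Within 1000 bases of those lay an anti-MAFG region at RPL41 (724 bases). Anti-MITF regions lay as near to the starts of POLR2F (212), RPL41 (827), ZC3H10 (458 and 26) and TUBB3 (74). The share of all consensus regions near a start was not computed. The antibodies shared places: 19 of the 33 anti-MITF regions, 57.6% (exact binomial 95% interval 39.2 to 74.5%), overlapped an anti-MAFG consensus region, against 59.1% of all 17346 such regions, so the share was near that of the genome. In MAFG cells 0 of 6 did (interval up to 45.9%), against 14.4% of all. These intervals cover counting error only, and regions of 1 gene are not independent. H3K4me3 lay over 38.7% of the anti-MAFG regions in GFP cells (26.7% of all) and over 57.6% of the anti-MITF regions (42.7% of all). Of the 31 regions 16 (51.6%) were found in all 3 GFP-cell libraries and no MAFG-cell library, against 44.5% of all 19193 anti-MAFG consensus regions. Of the 33 it was 10 (30.3%), against 45.5% of all 17346 with anti-MITF.

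The peaks of these windows rested on few fragments in GFP cells, as did the whole lists. The 108 anti-MAFG peaks had a median of 14 fragments at the summit (6 to 53), and the 107 anti-MITF peaks a median of 11 (5 to 34). In MAFG cells the 7 anti-MAFG peaks had a median of 18 (12 to 38) and the 21 anti-MITF peaks 21 (13 to 36). Of the GFP-cell peaks, 17.6% with anti-MAFG and 45.8% with anti-MITF had fewer fragments than the lowest 5th percentile of the MAFG-cell lists, 10 and 11 fragments. The same shares over all GFP-cell peaks were not computed. At the 5 regions called in all 6 libraries of an antibody the fragment ranges of the lines overlapped each time. These regions were picked by a call in every library. The fewest fragments called were 5 to 7 in GFP-cell libraries and 8 to 12 in MAFG-cell libraries, so the overlap does not show equal binding.

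H3K4me3 marked a start of every gene but KIT in both lines, 9 of 10. Of the 15844 genes with a listed start 60.0% were marked in GFP cells and 56.2% in MAFG cells. At TFAP2A it marked the downstream of the 2 starts, and no H3K4me3 peak covered the promoter of the upstream start in either line. There is 1 library per line, so differences between the lines have no replicate check. The peak caller's scaling was 1 in GFP cells and 0.35 in MAFG cells, and the fewest fragments called were 5 and 12. The part of this scaling in widths, splits and folds was not tested. Summit fragments, where recovered in both lines, were 113 in GFP cells and 161 in MAFG cells at PAX3. They were 128 and 154 at ZEB2, 143 and 174 at SNAI2, and 156 and 159 at EDNRB. The peaks at the start were broad: LEF1 had 14.1 kb in GFP cells and 9.22 kb in MAFG cells, TFAP2A 12.6 and 8.3 kb, SOX10 10.4 and 5.58 kb, MC1R 8.95 and 6.84 kb and EDNRB 7.38 and 5.32 kb. At the first 4 of these the stretch that 1 peak covered in GFP cells held 2 called peaks in MAFG cells, which together spanned 12 kb at LEF1, 9.86 kb at TFAP2A, 7.62 kb at SOX10 and 7.31 kb at MC1R. The median peak was 2.16 and 1.78 kb wide, and the 95th percentile 5.18 and 4.26 kb. PAX3 had the narrowest, 2.71 and 2.76 kb. SOX10 also had the highest fold of the set, 132 at rank 36 of 13579 in GFP cells and 55.1 at rank 73 of 11580 in MAFG cells. MC1R had a fold of 96.3 at rank 310 in GFP cells and 18.2 at rank 4619 in MAFG cells, with a peak that spans the TUBB3 start too. The LEF1 peak likewise spans the LOC124900752 start. The median fold of the whole list was 28.3 in GFP cells and 15.3 in MAFG cells, and each fold at these starts is to be read within its own list.

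**Figure D4:**
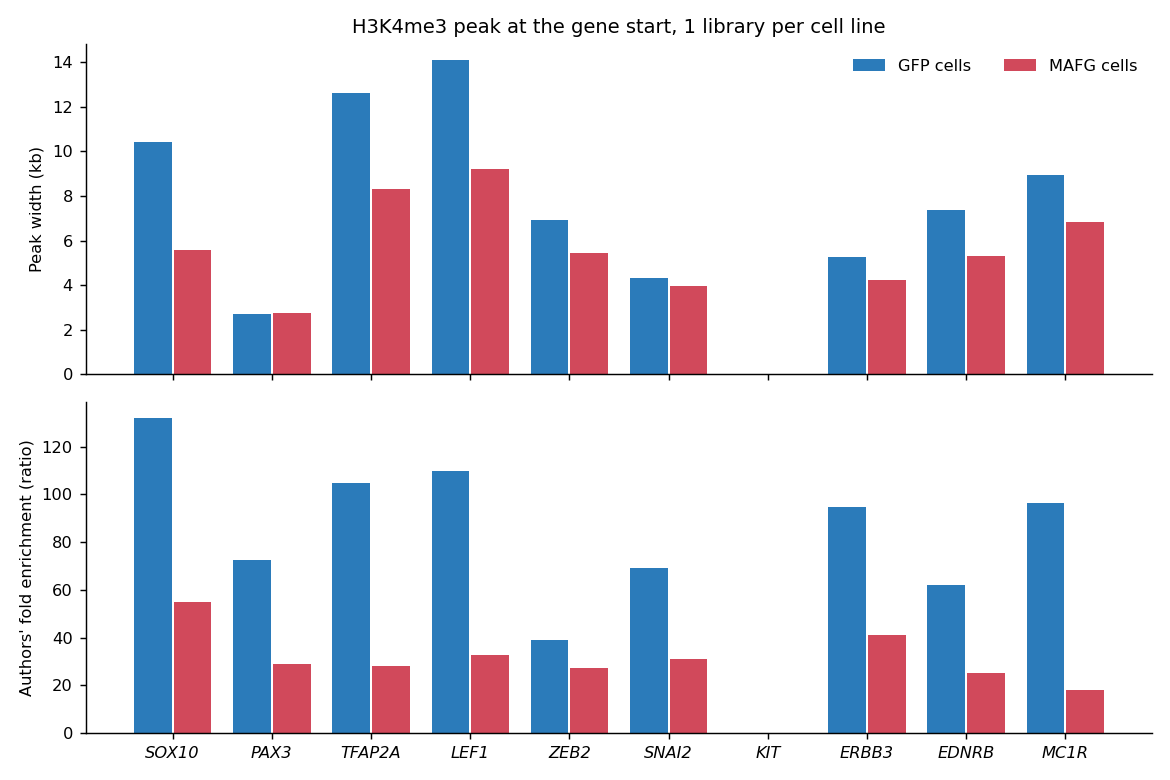
Width in kb (upper) and the authors' fold enrichment (lower) of the H3K4me3 peak at each gene start, 1 library per cell line. In GFP cells LEF1, TFAP2A and SOX10 have the widest peaks; PAX3 has the narrowest in both lines, and KIT has none. A domain split into several peaks in MAFG cells is shown by the peak at the start.

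The other lineage genes examined are counted beside the share of all genes. Among 28 further factors, ligands, receptors and Wnt effectors, GFP cells had an anti-MAFG consensus region at 13 (43.4% of all genes have one) and an anti-MITF one at 13 (53.5%). In MAFG cells 5 had one with anti-MAFG (MITF, ETS1, SOX5, NRG1 and TCF7L2; 6.23% of all genes) and 4 with anti-MITF (MITF, ETS1, SOX5 and SNAI1; 10.3%). Peak numbers were higher in GFP cells without overlap for 12 of 19 tested with anti-MAFG (45.4% of all tested) and 12 of 17 with anti-MITF (56.9%), and none was higher in MAFG cells. Of the 6 ligands, 3 had an anti-MAFG region in GFP cells (EDN1, NRG1, KITLG) and 1 an anti-MITF region (NRG1). Only 20 of the 28 genes had a listed start. H3K4me3 lay at 16 of these 20 in GFP cells (60.0% of all genes with a listed start) and at 14 in MAFG cells (56.2%).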

How the data were processed

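CUT&RUN peaks were called per library and deposited by the authors as 14 narrowPeak lists. Per the submitters' processing notes the tools were cutadapt 1.8.1, Bowtie2 2.4.1, MACS2 2.1.1.20160309, ChIPseeker 1.32.1 and deepTools, with GRCh38/hg38. The caller's settings and control are not given in the sources used here. Each deposited line gives a score (not used), the authors' fold enrichment (a ratio), -log10 p and -log10 q, and another column with the summit offset. The 2 IgG samples were not analysed here.

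Windows were gene bodies from the RefSeq table with 20 kb added, and an overlap of 1 bp counted. Peaks of 1 antibody that overlapped were merged, and a region in 2 of 3 libraries was a consensus region. Gene starts came from RefSeq promoter entries, or from the gene end given by the known strand (SOX10, SNAI2, ERBB3). Peaks were ranked by fold within a list. Fragments at a summit were recovered as the whole number and scale that give both fold and p under a Poisson background, within 0.001 of the -log10 p, which held for 100% of peaks in the 12 factor libraries. Depth was estimated from the lowest background and the shortest peak. Peak numbers were compared for every protein-coding gene with a peak by an exact permutation test with Benjamini-Hochberg adjustment (Python 3.11.15, scipy 1.17.1), tested on simulated data.

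All 10 genes are named. Regions given are the best-ranked consensus region per antibody and line, each consensus region of MAFG cells and that nearest the start. Best-ranked means the best mean rank within the list, over only those libraries that called the region. Promoters are printed where a factor peak covered a searched motif. The genes, lists and tests were chosen with earlier results of these data known.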

Additional observations from a re-analysis of the deposited data

How the results depend on the processing

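Peak calling set the limits here: no read counts were used, a region not called is not shown to be unbound, and 3 libraries against 3 allow no p under 0.1. With the gene body alone, the genes with an anti-MAFG consensus region were 5 in GFP cells and 1 in MAFG cells, and those higher in GFP cells without overlap were 5 with anti-MAFG and 4 with anti-MITF. With equal lists of 1836 peaks the anti-MAFG counts were 4 and 1, the anti-MITF count in GFP cells was 3, and 1 gene per antibody did not overlap. At a -log10 q of at least 5, MAFG cells had 1 gene with anti-MAFG and 2 with anti-MITF, and 4 genes did not overlap with anti-MITF. Requiring 3 of 3 libraries left 1 gene (EDNRB) with anti-MAFG in MAFG cells. Leaving out 1 library gave 1 to 2 for that count (1 without MAFG-cell library 1 or 3), 3 to 4 with anti-MITF in MAFG cells, 8 to 9 with anti-MITF in GFP cells and 8 to 9 for each non-overlap count. It gave 45.5 to 63.6% for the shared regions of GFP cells and 0 for those of MAFG cells.

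Differences in peak number (GFP minus MAFG cells) changed sign with equal lists at ZEB2 with anti-MAFG (-0.333) and at ZEB2 (-0.667), EDNRB (-1) and MC1R (-1) with anti-MITF. As shares per 10000 peaks they changed sign at ZEB2 (-1.99) and EDNRB (-1.36) with anti-MAFG, and at SOX10 (-1.85), ZEB2 (-0.0125), SNAI2 (-2.08), EDNRB (-4.83) and MC1R (-9.41) with anti-MITF. Both settings remove the difference in list length by construction.

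With the replicate number as a block, 8 genes with anti-MAFG and 8 with anti-MITF were higher in GFP cells in every same-numbered pair, and no call changed; 3 pairs allow no exact p under 0.25. Same-numbered libraries had correlations of -0.155 to 0.028 across genes, which gives no sign of pairing.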
